A study of Mus musculus with 6 samples.

Results

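The genes described here are the serpins, Kazal-type inhibitors, cystatins and stefins, kallikreins and cathepsins measured in keratinocytes sorted from mouse skin. A probe was included when its gene symbol, taken from the probe's accession or otherwise from its description, began with Serpin, Spink or Cts, or with Cst or Klk and a digit, or belonged to the Csta and Stfa genes. This gave 77 of the 20868 non-control probes, each for a different gene: 34 serpins, 2 Kazal inhibitors, 6 cystatins and stefins, 16 kallikreins and 19 cathepsins. The tested cells were alpha-6 integrin-positive and CD34+, called stem and progenitor cells in the labels, and their counterparts were alpha-6 integrin-positive and CD34-, called basal cells. Both fractions came from the skin of mice aged 7 weeks by trypsin digestion and flow sorting, and both therefore passed the same integrin gate. Strain, sex, genotype and the number of mice behind each replicate are not given in the sources used here. There were 3 biological replicates, each hybridised to 2 Agilent arrays of 60-mer probes with the dyes exchanged, and the 2 arrays of a replicate were averaged and counted once.

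These families meet as enzymes and their inhibitors. Serpins are folded traps that most often inactivate serine proteases by a single irreversible reaction, although some members, such as the collagen chaperone Serpinh1, inhibit nothing. Clade B serpins and stefins stay mainly inside the cell, whereas clade A serpins and most cystatins are secreted; stefins and cystatins block the papain-like cathepsins. Cathepsins are mostly lysosomal proteases, and kallikreins are secreted serine proteases, several of which cut the junctions that hold the outermost epidermal cells together. In mouse skin, loss of cathepsin L disturbs hair follicle cycling and epidermal growth.

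The upstream sequences of 5 genes are shown because they belong to the groups on which the results turn, the clade B serpin cluster of chromosome 1 and the cathepsins. They are the 250 bases before the annotated start in the RefSeq promoter table of build GRCm38.p6, written 5′ to 3′ on the gene's strand, and Serpinb2, which has 2 starts in that table, is given for the start listed earlier. Capitals mark matches to TGANTCA in the serpins, a pattern that includes the AP-1 core TGAGTCA, and to CACGTG, an E-box core, in the cathepsins.
Serpinb11 promoter, chr1:107362064-107362313, + strand: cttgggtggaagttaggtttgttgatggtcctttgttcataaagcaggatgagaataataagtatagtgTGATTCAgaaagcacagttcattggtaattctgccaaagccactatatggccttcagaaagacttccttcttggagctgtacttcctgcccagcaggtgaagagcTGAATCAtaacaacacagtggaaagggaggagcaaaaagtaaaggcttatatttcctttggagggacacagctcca
Serpinb7 promoter, chr1:107422439-107422688, + strand: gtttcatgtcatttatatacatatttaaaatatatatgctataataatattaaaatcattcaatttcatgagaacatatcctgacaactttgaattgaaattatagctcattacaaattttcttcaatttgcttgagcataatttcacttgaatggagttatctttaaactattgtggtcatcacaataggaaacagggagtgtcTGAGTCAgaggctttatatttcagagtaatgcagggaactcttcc
Serpinb2 promoter, chr1:107511173-107511422, + strand: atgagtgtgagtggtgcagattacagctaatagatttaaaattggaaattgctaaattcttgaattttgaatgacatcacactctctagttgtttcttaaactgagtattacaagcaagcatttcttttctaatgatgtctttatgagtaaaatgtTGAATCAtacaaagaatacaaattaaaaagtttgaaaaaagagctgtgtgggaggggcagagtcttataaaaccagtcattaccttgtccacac
Ctsl promoter, chr13:64370521-64370770, - strand: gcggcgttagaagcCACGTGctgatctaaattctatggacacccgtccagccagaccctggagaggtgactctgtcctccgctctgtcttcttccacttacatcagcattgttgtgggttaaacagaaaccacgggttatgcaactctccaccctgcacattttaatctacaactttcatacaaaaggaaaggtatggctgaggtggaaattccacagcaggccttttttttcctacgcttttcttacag
Ctsf promoter, chr19:4854915-4855164, + strand: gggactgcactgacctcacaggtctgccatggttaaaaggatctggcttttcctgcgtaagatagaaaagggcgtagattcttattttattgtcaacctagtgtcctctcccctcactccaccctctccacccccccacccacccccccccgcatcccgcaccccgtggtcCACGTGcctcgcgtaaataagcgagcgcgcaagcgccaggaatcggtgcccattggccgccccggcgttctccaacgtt

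Both patterns read the same on either strand, and they do not overlap each other. TGANTCA stood in 6.75% of the 32851 windows of this length in the table, and in 8 of the 65 genes described here that the table holds. A gene was counted when the window of any of its starts matched, so shares of genes and of windows are unlike measures. Of the 7 measured clade B serpins of the chromosome 1 cluster, 6 had it, namely Serpinb2, Serpinb5, Serpinb7, Serpinb8, Serpinb11 and Serpinb12, against 0 of the 8 clade B serpins of the chromosome 13 cluster that have an entry. The matched letters were TGAGTCA in Serpinb7, TGAATCA in Serpinb2, and TGATTCA with TGAATCA in Serpinb11, where they lay 181 and 76 bases before the start. CACGTG stood in 6.02% of all windows and in 5 of these 65 genes, all of them cathepsins (Ctsa, Ctsd, Ctsf, Ctsl and Ctsll3, out of 15 cathepsins with an entry). TATAAA and CCAAT were also counted. TATAAA stood in 4 of those 7 chromosome 1 genes and 0 of those 8 chromosome 13 genes, and CCAAT in 3 and 1. Of the 15 cathepsins with an entry, 5 had TATAAA and 8 had CCAAT. Over all windows the shares were 12.4% for TATAAA and 33.8% for CCAAT. The letters are a description of these windows, they were picked after the promoters had been looked at, and binding was not measured. The starts are as annotated, and whether transcription begins there was not checked. The Ctsl window ends in a pyrimidine-rich stretch and cag, a form that splice acceptors also have.

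The sort was visible in the arrays. The normalised intensity of Cd34, the sialomucin used for the sort, was 39159.7, 50739.7 and 25169 in CD34+ cells of replicates 1, 2 and 3, against 689, 656 and 589 in CD34- cells. Itga6, the integrin of the shared gate, was lower in CD34+ cells by 1.18 ± 0.27 on the log2 scale (SD, n = 3, adjusted p = 0.018). Of 13 tested marker genes of bulge keratinocytes, the stem cells of the hair follicle, 12 were higher in CD34+ cells and 0 lower. Of all probes, 5.38% were called higher and 6.65% lower. The list includes Cd34 itself and was chosen with earlier results of these data known, so its count is no independent check of the sort. The remaining marker, Krt15, was saturated on all 6 arrays in CD34+ cells and on 3 in CD34- cells, so its ratio is not given. All level values are normalised intensities in arbitrary units and include an offset of 50, so ratios of dim genes are understated, and probes are not compared with each other by level. RNA came from bulk fractions, in which a change in the share of cells of a type cannot be told apart from a change in RNA per cell.

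The arrays compared the fractions over all 77 genes, of which 70 were tested, 5 were too dim (Spink12, Ctsj, Klk1b1, Serpinb9b and Serpini1) and 2 lacked a replicate because a spot was marked as an outlier by the scanner software (Serpinb2 and Serpinf1). Using limma's moderated test with Benjamini-Hochberg adjustment over all 20214 tested probes, 8 were higher in CD34+ cells (Serpinh1, Serpinb11, Ctsz, Ctsl, Ctsf, Cst9, Serpina1d and Serping1) and 4 were lower (Csta2, Stfa3, Ctsh and Serpinb7). Of these genes 11.4% were thus called higher, against 5.38% of all probes, and 5.71% were called lower, against 6.65% of all probes, so the share called lower is near the background. The shares over all probes are also the background for the counts by family and by marker list below. The median log2 ratio was 0.012 over the 70 genes and 0.0040 over all probes tested, and 7.14% of these genes differed by 2-fold or more, against 2.77% of all probes. The calls depended on which replicates entered: limma called 0 of these genes higher and 0 lower without replicate 1 (18 of 70 had an unadjusted p under 0.05, as did 23.0% of all probes), and 1 higher (Serpinh1) and 0 lower without replicate 2, but 10 higher and 7 lower without replicate 3, where 10.2% of all probes were called higher and 10.8% lower. Fitted as unpaired channels, 4 passed as higher and 2 as lower, and Serpinb11, Serpinb7, Serpina1d, Serping1, Cst9 and Stfa3 no longer did. The background shrank too: among all probes, the unpaired fit passed 1.38% as higher and 1.34% as lower. With replicate 2 left out, the background was 0.66% higher and 0.82% lower.

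**Figure D1:**
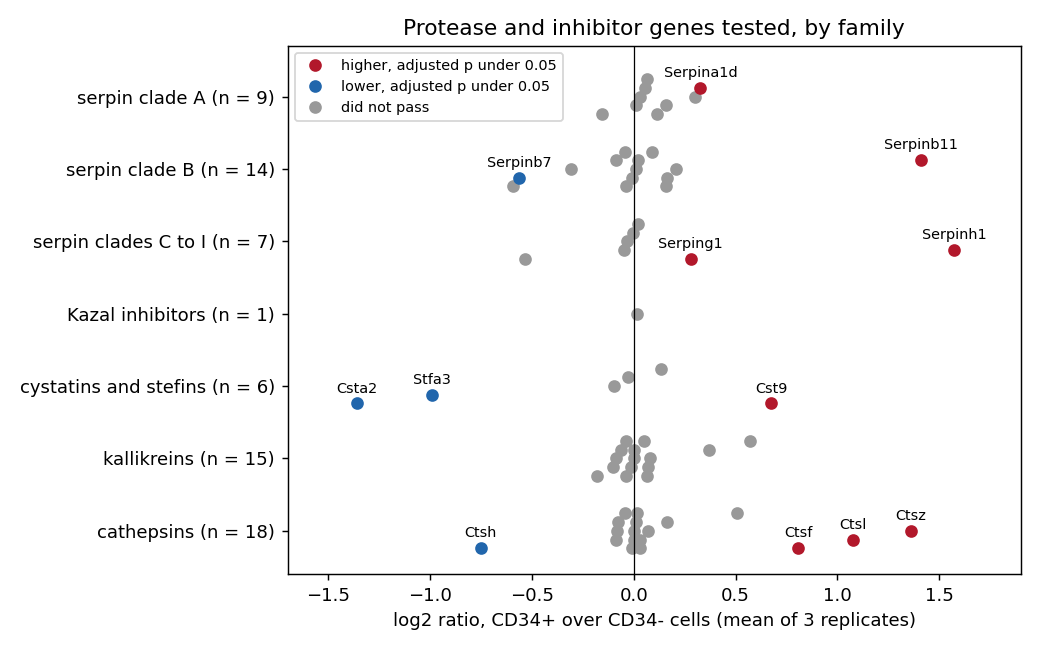
Each point is 1 tested gene, placed by its log2 ratio of CD34+ over CD34- cells (mean of 3 replicates, horizontal axis) and by family (vertical axis, with the number tested), red where higher and blue where lower at an adjusted p under 0.05. Most genes lie near 0, all 15 kallikreins are grey, and the points farthest out are Serpinh1 at 1.58 and Csta2 at -1.36.

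Among the serpins, 30 were tested, with 4 higher and 1 lower in CD34+ cells. Of all probes, 5.38% were called higher and 6.65% lower. Serpinh1, which encodes the endoplasmic reticulum chaperone of procollagen also called HSP47, had intensities of 7123, 9286 and 6957 in CD34+ cells, against 2519.6, 2199 and 3138 in CD34- cells. The groups were well apart, and the mean log2 ratio was 1.58 ± 0.47 (SD, n = 3; 2.98-fold, adjusted p = 0.022). The ratio was positive on all 6 arrays. Some markers of fibroblasts, which make much collagen, moved with it: Col1a2 was higher by 1.02 and Mmp2 by 1.27 on the log2 scale. These were the only 2 of the 6 tested fibroblast markers called higher, with 0 lower and a list median of 0.05. The summed intensity of the 6 markers was 3399 to 4849 in CD34+ cells, against 1899 to 2003 in CD34- cells. Col1a2 held 363 to 711 of it in CD34+ cells and 196 to 328 in CD34- cells, so most of the sum came from other markers. Dcn and Pdgfra, also fibroblast markers, were dim in both fractions and had log2 ratios of 0.00 and 0.07, which did not pass; the part of such cells in the Serpinh1 result was not tested.

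The clade B serpins of chromosome 1 held values of opposite sign in adjacent genes. Serpinb11, which inhibits trypsin-like proteases in the mouse, had intensities of 1568, 838 and 422 in CD34+ cells, against 386, 380.5 and 200.4 in CD34- cells. Within each replicate the CD34+ value was higher, and the 3 CD34+ values all exceeded the highest CD34- value. The mean log2 ratio was 1.41 ± 0.53 (SD, n = 3; 2.66-fold, adjusted p = 0.031). With the arrays also scaled to each other, Serpinb11 no longer passed. Serpinb7, or megsin, whose human counterpart is lost in Nagashima-type palmoplantar keratosis, is the next protein-coding gene along the chromosome. Its intensities were 278, 265 and 321 in CD34+ cells, against 408, 409 and 454 in CD34- cells. The groups did not overlap, the replicates were close, and the mean log2 ratio was -0.56 ± 0.06 (SD, n = 3, adjusted p = 0.016).

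Serpinb2, or plasminogen activator inhibitor 2, follows Serpinb7 in gene order and was left out of the test because its spot on the replicate 2 array with CD34+ cells in Cy3 was marked as an outlier. Its intensities were 1195 and 2029 in CD34+ cells of replicates 1 and 3, against 6057 and 5227.5 in CD34- cells. The log2 ratio was -2.34 in replicate 1 and -1.37 in replicate 3, and the unmarked array of replicate 2 gave -3.35. All 5 unmarked arrays were thus lower in CD34+ cells. With outlier spots kept, the mean over 3 replicates was -2.43 and passed (adjusted p = 0.045), and with replicates 1 and 3 alone it was -1.85 and did not (adjusted p = 0.069).

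The other clade B serpins of chromosome 1 did not pass. Serpinb12, a trypsin inhibitor in humans, had log2 ratios of -1.05, -0.77 and 0.05 in replicates 1, 2 and 3. Serpinb5, or maspin, an epithelial serpin that does not act as a protease inhibitor, had log2 ratios of -0.40, -0.54 and 0.02. Serpinb8, an inhibitor of furin in humans, had log2 ratios of 0.44, 0.45 and -0.26. In these 3 genes replicate 3 stood apart from replicates 1 and 2. Of the 10 tested differentiation markers of suprabasal keratinocytes, 5 were negative in replicates 1 and 2 and positive in replicate 3, as Serpinb12 and Serpinb5 were (Sprr1a, Calm4, Tgm1, Tgm3 and Casp14), and 5 were not. Sprr1a had log2 ratios of -1.22, -1.72 and 0.18 and Calm4 of -1.33, -2.31 and 0.00, whereas Lor had 1.55, 1.32 and 1.66 and Krt1 -2.24, -3.39 and -1.20. Of these markers, 1 was lower in CD34+ cells (Krt1, -2.28, adjusted p = 0.046) and 1 higher (Lor, 1.51, adjusted p = 0.0090). The summed intensity of the 10 markers was 9982 to 26679 in CD34+ cells, against 11724 to 17706 in CD34- cells. In CD34+ cells the largest parts of that sum were Lor, at 5791 to 14783, and Calm4, at 1216 to 8573. In CD34- cells Lor was at 1984 to 4663 and Calm4 at 4828 to 8560.5. The part of differentiated cells in the serpin values was not tested. A separate probe described as inferred to be maspin gave 0.38 on the log2 scale (adjusted p = 0.084), opposite in sign to the Serpinb5 probe at -0.31 (adjusted p = 0.19), so the direction of maspin is unsettled.

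**Figure D2:**
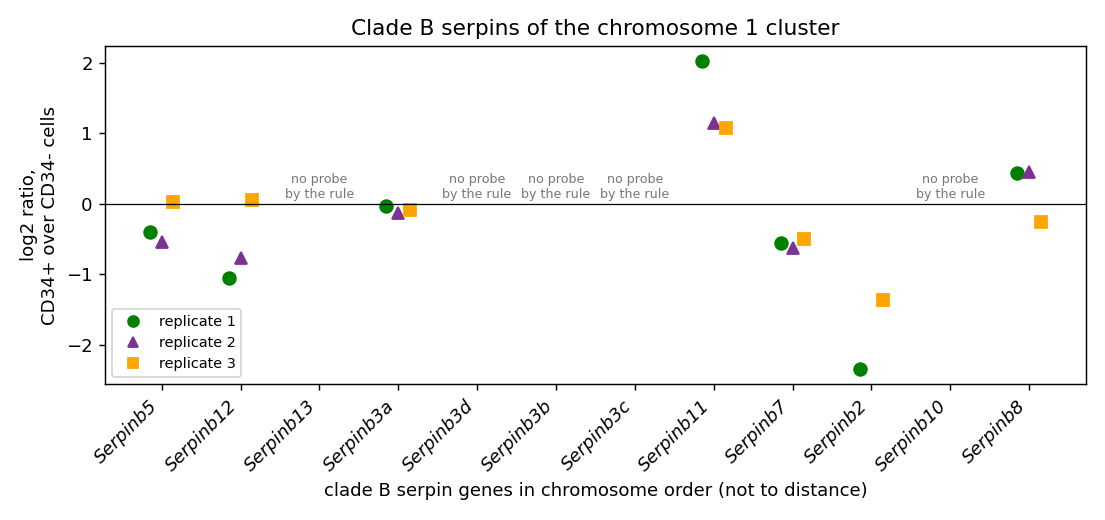
Log2 ratios of CD34+ over CD34- cells (vertical axis) in replicates 1, 2 and 3 for the clade B serpins of chromosome 1, in gene order from left to right and not to distance. Serpinb11 lies above 0 in all 3 replicates, its neighbour Serpinb7 lies below 0 in all 3, and Serpinb2 is drawn for replicates 1 and 3, at -2.34 and -1.37.

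The clade B serpins of chromosome 13, which include intracellular inhibitors of neutrophil and granule proteases, gave no call, with 0 of the 8 tested passing limma's adjusted test and 1, Serpinb1a, at an unadjusted p under 0.05, which 30.7% of all probes had. Their mean log2 ratios ran between -0.04 for Serpinb9c and 0.16 for Serpinb6c. Serpinb1a, an inhibitor of neutrophil elastase, was positive on all 6 arrays at 0.16 ± 0.08 (SD, n = 3, adjusted p = 0.14). Their sequences are close to each other, as are those of the Serpina3 genes, and probes of such genes may report on their paralogs.

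Secreted serpins gave smaller differences. Serpina1d, an alpha-1-antitrypsin gene with near-identical paralogs in the mouse, had intensities of 298, 399 and 518 in CD34+ cells, against 252, 303 and 407 in CD34- cells. The ranges overlapped but each replicate moved the same way, with a mean log2 ratio of 0.33 ± 0.08 (SD, n = 3, adjusted p = 0.035). It did not pass on the arrays with CD34+ cells in Cy3 alone. Serping1, the C1 inhibitor of the complement and contact systems, had intensities of 92.5, 86.2 and 201 in CD34+ cells, against 78.5, 67.2 and 170.1 in CD34- cells. Its ratio of 0.28 ± 0.07 passed (adjusted p = 0.042), yet the 2 arrays of replicate 3 gave -1.81 with CD34+ cells in Cy5 and 2.29 with CD34+ cells in Cy3, and only 4 of its 6 arrays were positive. Its replicate means do not show this disagreement between dyes. With the deposited ratios in place of the renormalised ones its ratio was larger, 0.72, and did not pass (adjusted p = 0.074). Nor did Serping1 pass in limma's fit of the 6 arrays with a dye term and the replicate as a random block (adjusted p = 0.85). With limma on the arrays of 1 dye orientation, its adjusted p was 0.39 with CD34+ cells in Cy5 and 0.15 in Cy3. The call of Serping1 is therefore weak.

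Other secreted serpins did not pass. Serpine2 (protease nexin 1), Serpinf2 (the plasmin inhibitor), Serpinc1 (antithrombin) and Serpind1 (heparin cofactor II) had log2 ratios between -0.05 and 0.02, and 0 of these 4 passed. Serpina3n, an inhibitor of granzyme B and cathepsin G in the mouse, had log2 ratios of -0.54, 0.89 and 0.57 in replicates 1, 2 and 3, and 5 of its 6 arrays were positive. Its replicate 1 value averages -1.78 with CD34+ cells in Cy5 and 0.69 with CD34+ cells in Cy3. Serpinf1, an antiangiogenic serpin, had log2 ratios of 0.38 and 0.04 in replicates 1 and 2 and was not tested.

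Both stefin A genes measured were lower in CD34+ cells. Csta2, of the stefin A genes whose products block cathepsins in the cytosol, had intensities of 1131, 1013 and 1539 in CD34+ cells, against 3026, 3213 and 3055 in CD34- cells. The groups were far apart and the mean log2 ratio was -1.36 ± 0.34 (SD, n = 3, adjusted p = 0.019), so that CD34- cells had 2.56 times the level. Stfa3, from the same cluster on chromosome 16, had intensities of 550.5, 475 and 316 in CD34+ cells, against 1414, 878 and 525 in CD34- cells. The highest CD34+ value exceeded the lowest CD34- value, but every replicate moved the same way, with a mean log2 ratio of -0.99 ± 0.33 (SD, n = 3, adjusted p = 0.027). It no longer passed with the arrays scaled to each other. The stefin A genes of this cluster are near-identical copies, so these 2 probes may report on the same transcripts. Other stefin A genes of the cluster, Csta1, Csta3, Stfa1, Stfa2 and Stfa2l1, had no probe by the symbols used here. Cstb, or stefin B, falls outside those symbols and had log2 ratios of -0.99, -1.52 and -0.23, which did not pass (adjusted p = 0.10).

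Of the secreted cystatins, Cst9 was higher in CD34+ cells. Its intensities were 233, 328 and 509.6 in CD34+ cells, against 175, 196 and 278 in CD34- cells. The ranges overlapped, the ratio was positive on all 6 arrays, and its mean was 0.68 ± 0.24 on the log2 scale (SD, n = 3, adjusted p = 0.032). Cst3, or cystatin C, the broad extracellular inhibitor of cathepsins, was bright in both fractions, at 9311, 10797 and 13109 in CD34+ cells and 8257, 10477.5 and 11555 in CD34- cells. Its log2 ratio of 0.13 ± 0.08 did not pass (SD, n = 3, adjusted p = 0.18). Cst7, a leukocyte cystatin, and Cst10 had ratios of -0.10 and -0.03. The Kazal inhibitor Spink1, which blocks trypsin in the pancreas, had a log2 ratio of 0.01 (adjusted p = 0.87).

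**Figure D3:**
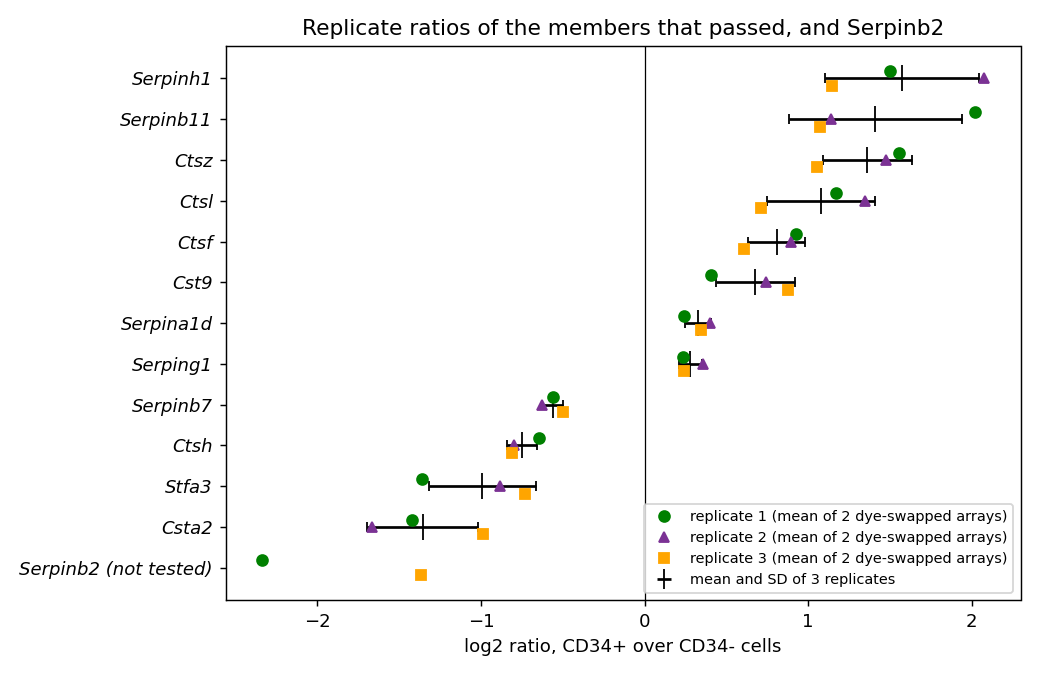
Log2 ratios of CD34+ over CD34- cells (horizontal axis) for the 12 genes that passed and for the untested Serpinb2 (vertical axis), with symbols for replicates 1, 2 and 3 and bars for the mean and SD of 3 replicates. Each of the 12 genes has its 3 replicates on the same side of 0, Serpinb11 and Serpinh1 spread the most, and Serpinb7 and Ctsh lie in a narrow range.

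Among the 18 tested cathepsins, 3 cysteine proteases were higher in CD34+ cells and 1 was lower. Of all probes, 5.38% were called higher and 6.65% lower, so the count of lower cathepsins is near the background. Ctsz, or cathepsin X, a lysosomal carboxypeptidase, had intensities of 549, 538 and 442 in CD34+ cells, against 187, 193 and 213 in CD34- cells. This gave a log2 ratio of 1.36 ± 0.27 (SD, n = 3; 2.57-fold, adjusted p = 0.015) with no overlap. Ctsl, the endopeptidase whose loss alters the mouse hair cycle, had 4257, 5596 and 3428 in CD34+ cells, against 1889, 2199 and 2096 in CD34- cells. Its log2 ratio was 1.08 ± 0.33 (SD, n = 3; 2.11-fold, adjusted p = 0.024), again without overlap. Ctsf, a further papain-like endopeptidase, had 2244, 2449.6 and 1992 in CD34+ cells, against 1183, 1319.5 and 1308 in CD34- cells, a log2 ratio of 0.81 ± 0.17 (SD, n = 3; 1.75-fold, adjusted p = 0.019). The E-box letters shown for Ctsl and Ctsf lay 236 and 79 bases before their annotated starts.

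Ctsh, the lysosomal aminopeptidase, went the other way. Its intensities were 152, 138 and 133 in CD34+ cells, against 237, 239 and 234 in CD34- cells, and all 6 arrays were negative. The log2 ratio was -0.75 ± 0.09 (SD, n = 3, adjusted p = 0.013), the smallest adjusted p of the 70 genes. The scanner's own ratios, made without that offset, averaged -1.08 for this probe.

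Ctsd, the main aspartic protease of the lysosome, had intensities of 1504, 1479 and 2179 in CD34+ cells, against 1109, 1186 and 1279 in CD34- cells. The groups did not overlap and all 6 arrays were positive, but the ratio of 0.51 ± 0.23 fell just outside the threshold (SD, n = 3, adjusted p = 0.0504). Ctsa, the carboxypeptidase that protects lysosomal galactosidase, had a log2 ratio of 0.17 (adjusted p = 0.26). A probe described as cathepsin B, outside the symbols used here, had ratios of 0.54, 0.39 and -0.03 and did not pass (adjusted p = 0.19). Cathepsins best known from blood-derived cells, Ctss of antigen-presenting cells, Ctsw of cytotoxic lymphocytes and Ctsg of neutrophils, had ratios between -0.09 and -0.08 and did not pass. The Ctss mean averages replicates of opposite sign, 0.35, -0.35 and -0.26. The placental-type cathepsins and their relatives, 7 of 8 tested, lay between 0.00 and 0.07, and 0 passed, either with limma's adjusted p or at an unadjusted p under 0.05.

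**Figure D4:**
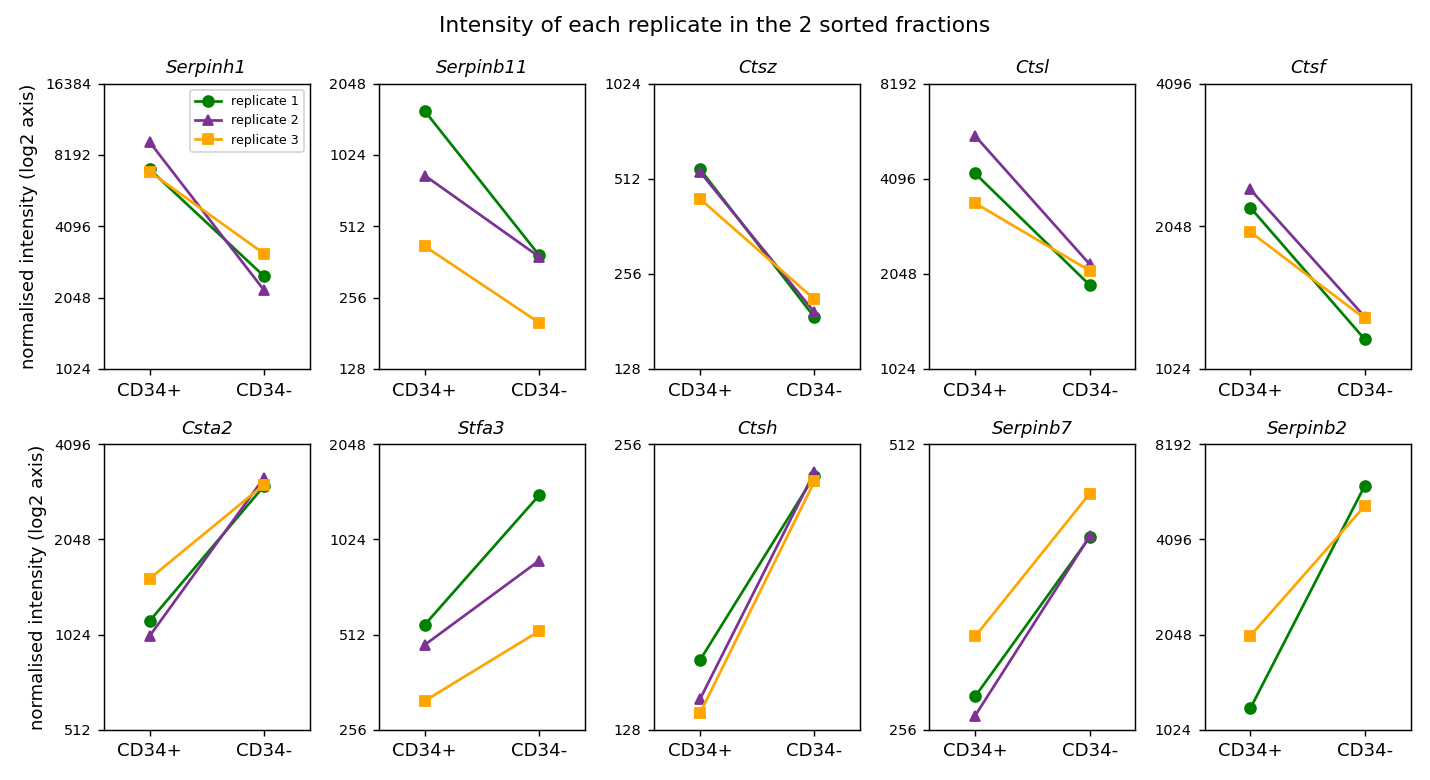
Normalised intensity (log2 axis, arbitrary units, each panel with its own range) in CD34+ cells on the left and CD34- cells on the right, for 10 genes and with a line for each replicate. Lines fall to the right for Serpinh1, Serpinb11, Ctsz, Ctsl and Ctsf and climb to the right for Csta2, Stfa3, Ctsh, Serpinb7 and Serpinb2, the last drawn for replicates 1 and 3.

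No kallikrein passed limma's test, 0 of 15, where 5.38% of all probes were called higher and 6.65% lower. Klk6, Klk7 and Klk10 had an unadjusted p under 0.05, 3 of 15 where 30.7% of all probes had one. The glandular genes Klk1 and Klk1b, a mouse expansion of near-identical copies, ranged between -0.10 and 0.05 over 8 tested genes. Klk6, a trypsin-like kallikrein, had the smallest adjusted p of the family, 0.065, with intensities of 98.8, 144 and 149 in CD34+ cells, against 83.5, 96.8 and 122 in CD34- cells. Its log2 ratio was 0.37 ± 0.18 (SD, n = 3), positive on all 6 arrays, and on the deposited ratios it averaged 0.76 and passed (adjusted p = 0.031). Klk7, the chymotrypsin-like enzyme of epidermal shedding, had intensities of 464, 465 and 1437 in CD34+ cells, against 301, 414 and 762 in CD34- cells. Its log2 ratios of 0.63, 0.17 and 0.92 were all positive, with an adjusted p of 0.093. Klk8 and Klk11 had ratios of 0.07 and -0.04. The probe taken as Klk13 was named only by the symbol in the array file, where other kallikrein numbers are outdated, so its identity is uncertain.

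**Figure D5:**
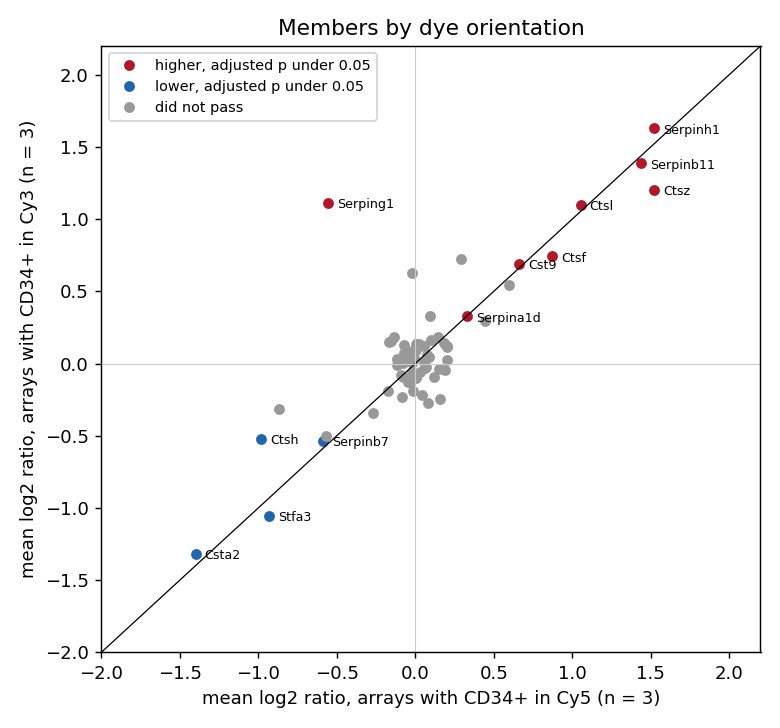
Mean log2 ratio of CD34+ over CD34- cells on the 3 arrays with CD34+ cells in Cy5 (horizontal axis) and on the 3 arrays with CD34+ cells in Cy3 (vertical axis) for the 70 tested genes, with the line of equality. Serping1 lies farthest from the line of the genes that passed, at -0.56 and 1.11, and Ctsh is next, at -0.98 and -0.52.

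The dye exchange gave a second reading of each gene within a replicate. Over the 70 genes, the largest difference between the 2 arrays of a replicate had a median of 0.19 on the log2 scale. It exceeded 1 in 3 genes, Serping1, Serpina3n and Serpinb12. Of the 12 genes that passed, 11 had the same sign on all 6 arrays, Serping1 being the exception. The calls were made on means of these same arrays, so this count is no separate check of them.

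The genes around these families were described from lists of pathway members. Of 23 tested genes of plasminogen activation and clotting, 2 were higher in CD34+ cells, Plat (tissue plasminogen activator, 0.40, adjusted p = 0.035) and Procr (the protein C receptor, 0.40, adjusted p = 0.030), and 1 was lower, Thbd (thrombomodulin, -0.47, adjusted p = 0.023). Of 13 trypsin-like and membrane-anchored serine proteases with their Kunitz inhibitors, 1 was lower (Htra1, -0.75, adjusted p = 0.034). Of 19 other secreted inhibitors, Papln was higher by 0.35 (adjusted p = 0.043) and Lxn, an inhibitor of carboxypeptidases, was lower (-0.91, adjusted p = 0.029). The medians of these 3 lists were 0.02, 0.02 and -0.03 on the log2 scale, beside 0.0040 for all probes. Over all probes tested, 5.38% were called higher and 6.65% lower, the background for these counts and for those of the lists that follow. The counts in these 3 lists are near that share.

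Lysosomal genes gave calls in both directions. Of 35 tested lysosomal enzymes, membrane proteins and sorting receptors outside the cathepsins, 6 were higher in CD34+ cells and 4 lower, with a list median of 0.01. Hexa, a lysosomal glycosidase subunit, was higher by 1.93 ± 0.40 (SD, n = 3, adjusted p = 0.015). Psap, the saposin precursor, and Scarb2, the receptor that sorts glucocerebrosidase, were lower at -0.68 ± 0.25 and -0.62 ± 0.12 (SD, n = 3; adjusted p = 0.034 and 0.019). Of 19 other cysteine and aspartic proteases, Capn2, a calpain, was higher by 1.07 (adjusted p = 0.029), and Bace2, Tpp1 and Capn10 were lower, with Bace2 at -1.43 (adjusted p = 0.028).

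Markers of other cells that make these proteins were read alongside. Of 13 Langerhans and myeloid markers, 0 were higher and 1 was lower (Tyrobp), with a list median of -0.06. Their summed intensity was 5637 to 6683 in CD34+ cells and 5431 to 6134 in CD34- cells. Most of that sum is Epcam, at 3240 to 4244 in CD34+ cells and 2893 to 3627 in CD34- cells. Its log2 ratio of 0.19 did not pass. Of 13 mast cell and neutrophil markers 0 passed, with 1775 to 1925 in CD34+ cells and 1790.4 to 1858 in CD34- cells. Of 9 T cell and NK cell markers, 1 was higher (Il2rb, 0.28, adjusted p = 0.043) and 0 lower, with a list median of 0.19. Their sum was 3655 to 4465 in CD34+ cells and 3181 to 4019 in CD34- cells. The largest part of it is Cd3e, at 1710.5 to 2742 in CD34+ cells and 1294 to 2376 in CD34- cells. Of 8 hair shaft and inner root sheath markers, Msx2, Krt33a and Krt35 were higher and 0 were lower, with a sum of 2567 to 3374 in CD34+ cells and 2179.9 to 2774 in CD34- cells. Of 6 melanocyte markers, Mitf and Dct were higher and Tyrp1 was lower, and their sum was 13221 to 23547 in CD34+ cells against 30544 to 35649 in CD34- cells. Most of that sum is Tyrp1, at 12192 to 21949 in CD34+ cells against 29757 to 34399 in CD34- cells. Melanocytes carry many lysosome-related organelles, and their part in the cathepsin and lysosomal values was not tested. All 12 genes that passed were well above background on all 6 arrays in both fractions, with 0 saturated spots.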

How the data were processed

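Ratios of alpha-6+CD34+ over alpha-6+CD34- keratinocytes were taken from 6 arrays, 3 biological replicates with a technical dye exchange each. Replicate 3 was assigned by elimination, since the labels number only replicates 1 and 2. The deposited intensity of each spot and its local background came from the Agilent Feature Extraction software, version A.6.1.1 for replicate 3 and A.7.5.1 for the others, per the file headers. That software also gave a background-subtracted, dye-normalised log10 ratio (Cy5 over Cy3) for each spot as deposited, and the deposited p-value of each ratio lay under 0.01 for 15.2% to 22.4% of features on an array. The deposited series table equals minus these log10 ratios, so its scale and direction are known, and its column medians lay between 0 and 0.00274.

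With limma 3.58.1 in R 4.3.3, intensities were background-corrected (normexp, offset 50), loess-normalised within arrays and turned to log2 CD34+ over CD34-. A replicate needed both arrays, and a probe needed all 3 replicates and, in 2 or more of them, a signal that the software marked well above background in either population; 472 probes were dim and 182 carried an outlier mark. Ratios were tested against 0 by lmFit and eBayes, with Benjamini-Hochberg adjustment over 20214 probes and a threshold of 0.05, and the procedure was tested on simulated data. Between 93.0% and 97.7% of probes were well above background in a channel; precision is limited by how few arrays there are. Of the 77 genes, 72 were named by accession in a RefSeq table (GRCm38.p6), 4 by the description's symbol and 1 by an older synonym; Itga6 was named by its description. The populations are paired within each array: channel deviations of a replicate correlated at r of 0.799, 0.718 and 0.811, although both channels share spots. Genes with values are all that passed, the gene with the smallest adjusted p in a family without one, genes whose probes disagree, and up to 2 called genes per direction of a pathway list; Serpinb2, Ctsd, Klk7 and the other genes given with values were chosen after their values were seen. Some genes that this rule names are not reported here. The genes and lists were chosen with earlier results of these data known.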

Additional observations from a re-analysis of the deposited data

How the results depend on the processing

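There were 16 alternatives. Without the pairing within arrays (no replicate block), limma called 4 genes higher and 2 lower, and 549 probes in all, against 2433. Leaving out a replicate gave 0 to 10 genes higher and 0 to 7 lower, with medians of 0.010 to 0.019. Without replicate 1, limma called 0 probes, although 4671 had an unadjusted p under 0.05, 18 of them among these genes. Without replicate 2 it called 299 probes and without replicate 3 it called 4253. With 6 arrays, a dye term and a random block it called 4284, and with software version as a term 4792. The median over these genes was 0.041 with median centring, which put that of all probes at 0.033, 0.036 with CD34+ cells in Cy3 only and -0.0049 with CD34+ cells in Cy5 only. Serping1 turned to -0.56 with CD34+ cells in Cy5 only. Spink1 turned to -0.033 with CD34+ cells in Cy3 only and ranged from -0.015 without replicate 1 to 0.031 without replicate 3, and never passed. Outside the replicate and pairing alternatives, Cst9, Csta2, Ctsf, Ctsh, Ctsl, Ctsz, Serpinb7 and Serpinh1 kept direction and call, while Serpinb11, Stfa3 and Serpina1d each lost the call once and Serping1 7 times. The cause of these differences was not tested.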
